A study of Mus musculus with 5 samples.

Results

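The genes described here encode complement components, receptors and regulators: the C1q chains C1qa, C1qb and C1qc, the components C3, C4b and Cfb, the inhibitor Serping1, and the receptors Vsig4 and C3ar1. They were chosen by name, as every probe set whose platform annotation carried one of these 9 symbols. Of the 9 genes, 8 were named by a probe set, among 13319 gene symbols on the array, and 7 by a probe set with no second symbol. The probe set of C4b was annotated to C4a and C4b together, and C3 is not analysed here. In all, 11 probe sets were read on 5 arrays, and 10 of them passed the filter on low values, a log2 value above 4 on at least 2 arrays. The arrays held RNA of endothelial cells of the thymus, the cells that line its blood vessels, from female C57BL/6J mice aged 6 to 8 weeks. Untreated mice gave 3 arrays (day 0), and mice taken 4 days after 550 cGy of sublethal total body irradiation, with no blood cell rescue, gave 2 arrays (day 4). Each array was a pool of cells from several mice, first depleted of CD45-positive blood cells and then sorted as CD45-negative, EpCAM-negative and VE-cadherin-positive. The labels name the sorted cells of the day 0 arrays as thymic endothelial cells and those of the day 4 arrays as CD45-negative thymic stromal cells, while the sorting protocol is the same for both.

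Complement is a cascade of plasma proteins that tags microbes, debris and dying cells for uptake. C1q recognises its targets and starts the classical pathway through C4 and C2, factor B serves the alternative pathway, and both pathways converge on C3. Unlike most plasma components, C1q is made mainly by macrophages and dendritic cells, and Vsig4 and C3ar1 are receptors found mainly on myeloid cells; these 5 genes are called macrophage-made below. C3, C4b, Cfb and Serping1 are made by liver cells and, locally, by endothelial cells, fibroblasts and other cells; they are called vessel-made below. Both names come from general knowledge of the genes and not from these arrays.

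The 5 macrophage-made genes lay higher on both day 4 arrays than on every day 0 array, with log2 differences of 1.48 to 2.09 in the C1q chains, which did not pass the test across all genes. Vsig4 and C3ar1 passed it, from day 0 values that all lay under the level filter. The vessel-made genes went both ways. The probe set shared by C4a and C4b rose by 1.32 in a separate fit over all probe sets, added after the values were seen. That call was lost without any single day 0 array. Serping1 lay 0.61 higher and Cfb 0.50 lower, and neither of these genes passed. Differences are day 4 minus day 0 on the log2 scale. Apart from that probe set, they were tested with limma over 8940 genes at a Benjamini-Hochberg adjusted p under 0.05. Among all genes tested, 2.85% were called, with 1.50% higher and 1.35% lower. The day 4 arrays lay entirely above the day 0 arrays for 18.0% of all genes and entirely below them for 23.0%.

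**Figure D1:**
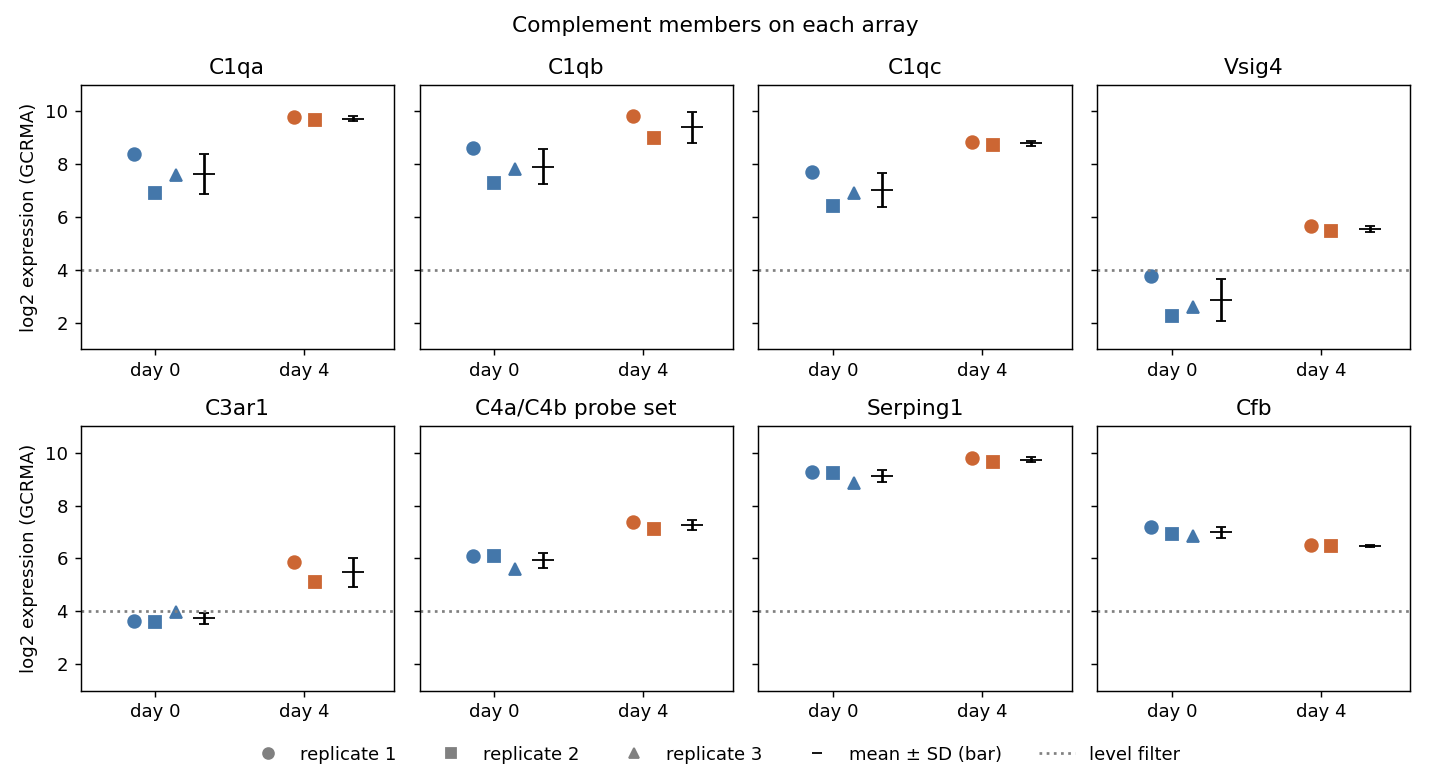
Log2 expression of each complement gene on the 3 day 0 arrays (blue) and 2 day 4 arrays (orange), with the mean and SD of each group in black and the level filter of 4 dotted. In the 5 macrophage-made genes, the C4a and C4b probe set and Serping1 the day 4 arrays lie above all day 0 arrays, and in Cfb below them.

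The C1q chains A, B and C are encoded by C1qa, C1qb and C1qc and assemble in equal numbers into one protein. C1qa stood at 8.40, 6.90 and 7.60 on day 0 replicates 1, 2 and 3 and at 9.79 and 9.66 on day 4 replicates 1 and 2. The day 0 arrays spread over 1.50, the day 4 arrays over 0.12, and a gap of 1.27 lay between the groups. The log2 difference of C1qa was 2.09 ± 0.40 (SE), a 4.26-fold higher mean, which limma put at an adjusted p of 0.0529, just outside the threshold.

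C1qc read 7.69, 6.42 and 6.93 at day 0 and 8.86 and 8.72 at day 4. As in C1qa, day 0 replicate 1 was the highest and replicate 2 the lowest of the untreated arrays, and both day 4 arrays lay above them. Its log2 difference was 1.78 ± 0.34 (SE), at a limma adjusted p of 0.0548. The probe set with the highest mean of the 3 for C1qb, used in the test, gave 8.63, 7.30 and 7.82 at day 0 and 9.81 and 8.98 at day 4. Here the gap between the groups was 0.36, because day 4 replicate 2 lay 0.83 below day 4 replicate 1. The log2 difference was 1.48 ± 0.41 (SE), at a limma adjusted p of 0.118. The other C1qb probe sets had log2 differences of 1.78 and 1.35, so all 3 had the same direction. The highest-mean probe set and that with 1.35 carry the suffix _x, which marks probes that can also match other transcripts.

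The 3 chains followed each other from array to array. Set against its own day 0 mean, C1qa lay 0.76 higher on day 0 replicate 1 and 0.73 lower (-0.73) on day 0 replicate 2, C1qb 0.71 higher and 0.61 lower (-0.61), and C1qc 0.68 higher and 0.59 lower (-0.59). The chains differed from each other by at most 0.14 on any day 0 array, by 0.30 on day 4 replicate 1 and by 0.97 on day 4 replicate 2. With the third C1qb probe set, the one without that suffix, the gap on day 4 replicate 2 was 0.46. None of the 3 chains passed in the fit of all 5 arrays without a replicate block, and leaving out some single arrays changed this for C1qa and C1qc. Without day 0 replicate 1, the highest untreated array, C1qa (2.47, adjusted p = 0.0154) and C1qc (2.12, adjusted p = 0.0140) passed, and without day 0 replicate 2 C1qa did (1.73, adjusted p = 0.0480). C1qa (adjusted p = 0.0430) and C1qc (adjusted p = 0.0433) also passed among genes above a level of 6, where fewer genes are tested. Other settings moved them away from the threshold. Without day 0 replicate 3 the limma adjusted p was 0.156 for C1qa and 0.162 for C1qc. With an intensity trend and robust fitting it was 0.0767 and 0.0734. Without day 4 replicate 1 the log2 differences were 2.03 and 1.71, and without day 4 replicate 2 they were 2.15 and 1.85.

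In the RefSeq gene table, C1qb, C1qc and C1qa stand side by side on chromosome 4 with no other protein-coding gene between them. The next protein-coding gene beyond C1qa is Epha8, which encodes an ephrin receptor. Its log2 difference was 0.19 (limma adjusted p = 0.328). Its mean went from 3.96 at day 0 to 4.16 at day 4, near the level filter.

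The 250 bases before the transcription start are shown for the 4 macrophage-made genes with an entry in the RefSeq promoter table, GRCm38.p6. The 4 are C1qb at chr4:136886201-136886450, C1qc at chr4:136892915-136893164, Vsig4 at chrX:96293439-96293688 and C3ar1 at chr6:122856158-122856407, all on the minus strand. Sequences are written 5′ to 3′ on the gene's strand, and capitals mark the motifs searched.
C1qb: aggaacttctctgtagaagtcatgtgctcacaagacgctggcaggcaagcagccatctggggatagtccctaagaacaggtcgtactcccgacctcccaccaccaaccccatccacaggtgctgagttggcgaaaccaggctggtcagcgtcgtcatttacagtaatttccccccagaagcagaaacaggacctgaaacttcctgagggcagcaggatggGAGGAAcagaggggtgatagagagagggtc
C1qc: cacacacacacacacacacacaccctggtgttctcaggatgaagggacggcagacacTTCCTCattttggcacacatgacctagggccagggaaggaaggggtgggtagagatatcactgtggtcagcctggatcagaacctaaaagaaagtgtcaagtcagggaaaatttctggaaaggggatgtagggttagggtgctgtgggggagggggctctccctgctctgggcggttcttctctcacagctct
Vsig4: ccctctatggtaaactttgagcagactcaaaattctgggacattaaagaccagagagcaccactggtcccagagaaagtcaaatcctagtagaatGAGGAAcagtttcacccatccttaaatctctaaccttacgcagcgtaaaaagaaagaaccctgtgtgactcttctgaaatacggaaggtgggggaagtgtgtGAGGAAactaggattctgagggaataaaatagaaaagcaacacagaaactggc
C3ar1: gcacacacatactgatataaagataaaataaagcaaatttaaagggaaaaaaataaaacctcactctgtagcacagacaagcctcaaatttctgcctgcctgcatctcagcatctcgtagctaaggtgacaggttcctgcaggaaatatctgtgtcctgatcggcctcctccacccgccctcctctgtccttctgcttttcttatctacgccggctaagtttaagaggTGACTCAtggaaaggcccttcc
The motifs, searched on both strands, were the core of the PU.1 site (GAGGAA), the AP-1 site (TGANTCA) and a MAF site (TGCTGAC); no match overlapped another. PU.1 is a transcription factor of macrophages and other blood cells. Its core was found in C1qb, from 30 to 25 bases before the start, in C1qc on the opposite strand, from 193 to 188 bases, and in Vsig4 at 155 to 150 and at 53 to 48 bases. The same letters were found in 23.3% of the 32851 windows of this length in the table, so they are common. The C3ar1 window held an AP-1 site, TGACTCA, from 22 to 16 bases before the start, and 6.75% of all windows held that motif. The MAF site, in 3.81% of windows, was found in none of these 4. A match is a stretch of letters and was not tested as a binding site.

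Both receptors rose. Vsig4, also known as CRIg, is a receptor of tissue macrophages for fragments of C3. It read 3.77, 2.25 and 2.61 at day 0 and 5.65 and 5.48 at day 4. All day 0 arrays lay under the level filter and both day 4 arrays well above it, with a gap of 1.72. The fitted log2 rise of 2.69 ± 0.42 (SE), at a limma adjusted p of 0.0333, starts from values not above the filter, so its size is not well defined. Leaving out day 0 replicate 3, day 4 replicate 1 or day 4 replicate 2 lost the call, at adjusted p of 0.116, 0.148 and 0.0748, with log2 differences of 2.56, 2.61 and 2.77. In the fit over all 15065 probe sets, Vsig4 stood at an adjusted p of 0.05003, just outside the threshold.

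C3ar1 encodes the receptor for the C3a peptide released when C3 is cleaved. Its tested probe set read 3.62, 3.61 and 3.97 at day 0 and 5.86 and 5.09 at day 4. The untreated arrays lay close together here, unlike those of the C1q chains, and day 0 replicate 1 was not the highest. The log2 rise was 1.74 ± 0.24 (SE), with a limma adjusted p of 0.0243. That call was kept without day 4 replicate 2 (2.13, adjusted p = 0.0255) and lost without any other single array, at adjusted p between 0.0590 and 0.0855. The second C3ar1 probe set read 2.95, 3.17 and 3.25 at day 0 and 4.68 and 3.81 at day 4, so it passed the level on 1 array and was not tested. Vsig4 and C3ar1 passed the filter only through their day 4 arrays, so their calls are not counted here as support for a shared change, and the sizes of both rises rest on background values at day 0. With no filter on low values, both calls were kept, at adjusted p of 0.0308 for Vsig4 and 0.0226 for C3ar1.

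Macrophage markers moved with these genes. Of 20 macrophage markers tested, 6 were called higher, which were Cd163, Cd5l, Fcgr1, Fcgr3, Cd14 and Hmox1, beside 1.50% of all genes. Of the 20, 0 were called lower. On both day 4 arrays 19 lay higher than on all day 0 arrays, beside 18.0% of all genes. Cd163 passed the filter only through its day 4 arrays, so it had to differ. Fcgr1, at 4.42, 3.34 and 3.98 on the day 0 arrays, also needed its day 4 arrays to pass, so its call has a like limit. Cd5l read 4.89, 4.26 and 3.29 at day 0, near the level. Fcgr3, Cd14 and Hmox1 lay above the level on every array. The count of 6 turned on single arrays: it was 13 without day 0 replicate 1 and 4 without day 0 replicate 2, and fell to 1 (without day 0 replicate 3), 0 (without day 4 replicate 1) or 2 (without day 4 replicate 2). Their mean log2 level ranged from 5.92 to 6.57 at day 0 and from 7.43 to 7.58 at day 4, and their summed unlogged signal from 1822 to 3210 and from 5214 to 6845. The defining markers were above the level filter on every array. Adgre1, a surface receptor that marks mouse macrophages, had a log2 difference of 1.12 (limma adjusted p = 0.0770), Csf1r, the receptor for the macrophage growth factor, one of 1.40 (adjusted p = 0.0805), and the lysosomal glycoprotein gene Cd68 one of 1.20 (adjusted p = 0.0811). Ptprc, which encodes the CD45 antigen used for depletion, had means of 6.52 and 6.53. The part that macrophage RNA had in the C1q, Vsig4 and C3ar1 values was not tested, and more such cells cannot be told apart from more RNA per cell in these pools. Markers of other blood cells had differences of the opposite sign or smaller ones. Dendritic cells also make C1q, and of their 3 markers tested Ccr7 fell (-1.31 on the log2 scale), while Cd83 (0.29) and Zbtb46 (-0.20) did not pass; the Ccr7 call was lost without any single array other than day 4 replicate 2. Ccr7 read 3.37 and 4.02 at day 4, so its fall ended near the level filter. The 3 neutrophil markers tested, S100a8, S100a9 and Camp, were called lower, but passed the filter only through their day 0 arrays. They lay under it on both day 4 arrays, so they had to differ and their count is no support. Of 10 thymocyte markers 7 were called lower, beside 1.35% of all genes. Of these, Rag1, Cd8b1 and Ccr9 lay under the level on both day 4 arrays, with the same limit. The other 4, such as Satb1 (-3.04) and Dntt (-2.21), did not, though Satb1 read 4.30 and 3.98 at day 4, near the level. Leaving out day 4 replicate 1 gave 0 thymocyte calls, leaving out day 0 replicate 3 gave 1, and leaving out any other array gave 4 to 8. Of 9 thymic epithelial markers 0 passed, and 4 had an unadjusted limma p under 0.05, which 21.2% of all genes had. These 4 all lay lower at day 4, and the median log2 difference of the 9 was -0.77.

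The C1q chains followed the marker mean across the untreated arrays as well. Centred on day 0, the mean of the macrophage markers lay at 0.38, -0.26 and -0.12 on day 0 replicates 1, 2 and 3, the same order as C1qa at 0.76, -0.73 and -0.032. That order is not particular to macrophage markers. The thymic epithelial (0.34, -0.24 and -0.10), dendritic cell and thymocyte marker means had it too, and these lay below 0 on both day 4 arrays. The endothelial, fibroblast, neutrophil, and pericyte and smooth muscle means did not have it. On the day 4 arrays the marker mean was 1.40 and 1.25 and C1qa 2.15 and 2.03. The median difference of the 20 markers was 1.25, beside 2.09, 1.48 and 1.78 for C1qa, C1qb and C1qc.

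**Figure D2:**
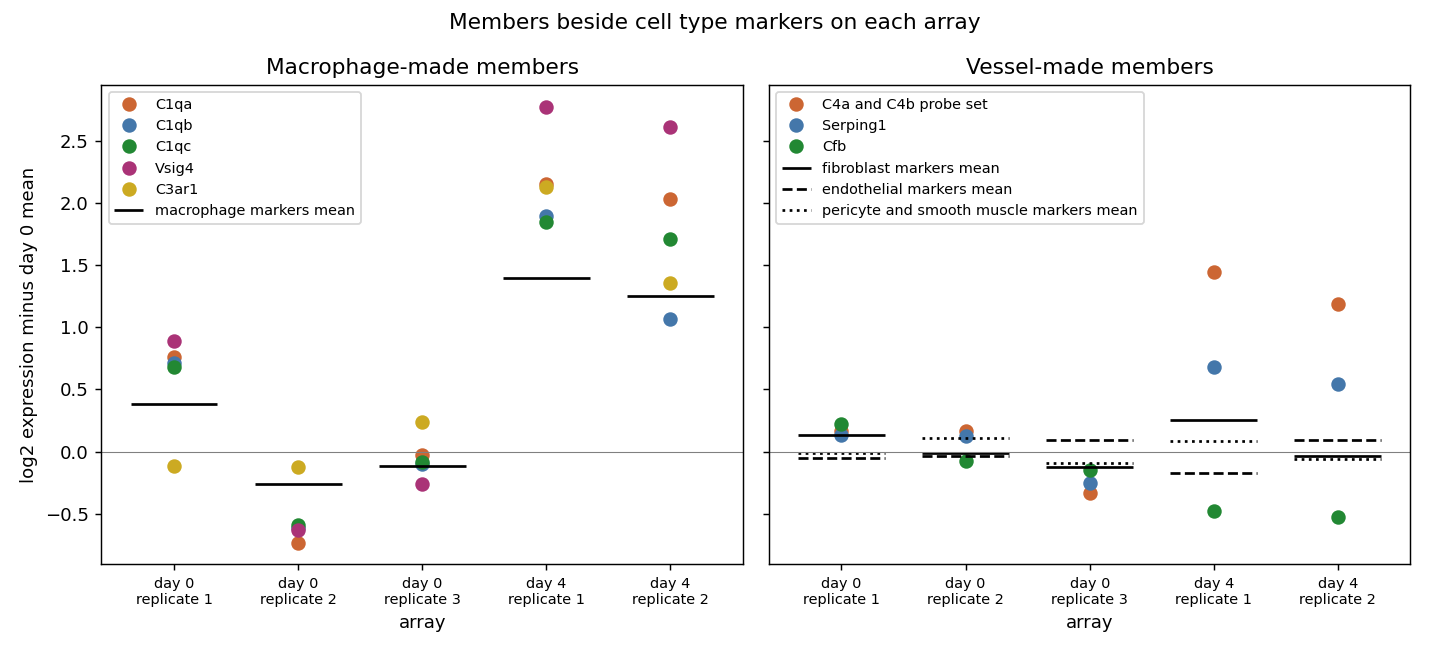
Log2 expression on each of the 5 arrays minus the gene's own day 0 mean, for the macrophage-made genes with the mean of 20 macrophage markers (left) and for the vessel-made genes with the means of 16 fibroblast, 17 endothelial and 10 pericyte and smooth muscle markers (right). The macrophage marker mean is at 1.40 and 1.25 on the day 4 arrays, while the 3 marker means on the right stay between -0.17 and 0.25 on all arrays.

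Among the vessel-made genes, the probe set annotated to C4a and C4b showed the largest difference. C4b encodes the component C4, which C1 cleaves in the classical pathway. C4a is a near-identical copy on the same chromosome, and the values cannot be divided between them. The probe set read 6.10, 6.10 and 5.61 at day 0 and 7.38 and 7.12 at day 4. It was above the level filter on every array, the groups did not overlap, and day 0 replicate 3 was the lowest array. The log2 rise was 1.32 ± 0.19 (SE), a 2.49-fold change. In the limma fit over 15065 probe sets, where 0.717% were called higher, it had an adjusted p of 0.0380, and that call was lost without any one of the 5 arrays (adjusted p between 0.0627 and 0.159).

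Serping1 encodes the C1 inhibitor, which blocks the proteases C1r and C1s bound to C1q. It read 9.25, 9.24 and 8.86 at day 0 and 9.80 and 9.66 at day 4. Its day 4 arrays lay above the day 0 arrays by a gap of 0.41, and day 0 replicate 3 was again the lowest. The log2 difference was 0.61 ± 0.15 (SE), 1.53-fold, with a 95% confidence interval of 0.26 to 0.97 and a limma adjusted p of 0.0877. It did not pass in any of the 12 alternative fits, whose adjusted p ran from 0.0501 to 0.234. Cfb encodes factor B, the protease of the alternative pathway. It read 7.20, 6.91 and 6.84 at day 0 and 6.50 and 6.46 at day 4, so both day 4 arrays lay below every untreated one, by a gap of 0.33. Its log2 difference was -0.50 ± 0.13 (SE), with a 95% confidence interval of -0.82 to -0.18 and a limma adjusted p of 0.103. It too failed to pass in each of the 12 alternatives (adjusted p from 0.0729 to 0.218).

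Markers of other stromal cells stayed closer to their day 0 levels than the C4a and C4b probe set. Of 16 fibroblast markers, 0 passed the limma test over all genes. An unadjusted p under 0.05, which 21.2% of all genes had, was found for 6 of them, in both directions. The mean log2 level of the 16 ranged from 7.96 to 8.22 at day 0 and from 8.05 to 8.34 at day 4. It was lowest on day 0 replicate 3, as were the C4a and C4b probe set and Serping1. That low is not particular to fibroblast markers. The pericyte and smooth muscle mean (8.34) was lowest there too, while the endothelial mean was not. Of 10 pericyte and smooth muscle markers, 0 passed and 1 had an unadjusted p under 0.05. Of 17 endothelial markers, 0 passed and 2 had an unadjusted p under 0.05, with mean levels of 10.08 to 10.23 at day 0 and 9.96 to 10.23 at day 4. Cdh5, which encodes the VE-cadherin of the sort, had means of 11.57 and 11.39, and Pecam1 of 9.72 and 9.86. The sorted cells thus carried endothelial markers at both times.

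The contrast between the 2 classes, as described here, is one of size, and of direction for Cfb alone. It is given for the genes above the level filter in both groups, which leaves out Vsig4 and C3ar1. The log2 differences of the C1q chains, 1.48 to 2.09, lay above that of the C4a and C4b probe set at 1.32, and those of Serping1 and Cfb were smaller still. The 95% confidence interval of C1qa (1.13 to 3.05) lay wholly above that of Serping1, which ended at 0.97. That of C1qc began at 0.95 and that of C1qb at 0.48, so both overlapped it, and the interval of the C4a and C4b probe set, 0.86 to 1.77, overlapped those of all 3 chains. The interval of Cfb lay below 0 and apart from those of the chains. The difference between the classes itself was not tested, since the genes are not replicates. As a description, the median was 1.78 over the 5 macrophage-made genes, Vsig4 and C3ar1 included, against -0.023 over all genes tested. Over Serping1 and Cfb it was 0.055, which only joins a gene at 0.61 and one at -0.50. The C4a and C4b probe set, at 1.32, was not in the gene fit and is left out of that value. With it, the middle value would be the 0.61 of Serping1.

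The untreated arrays also spread unequally, which was not tested. The range over the 3 day 0 arrays was 1.50 for C1qa, 1.32 for C1qb and 1.27 for C1qc. It was 0.39 for Serping1 and 0.37 for Cfb, and the C4a and C4b probe set ran from 5.61 to 6.10. Of the macrophage-made genes under the level filter at day 0, Vsig4 ranged over 1.52 but C3ar1 over 0.36. Among members above the level filter in both groups, the spread was thus wider in the C1q chains than in the vessel-made ones. Under the filter, C3ar1 went the other way, though its day 0 values are background.

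**Figure D3:**
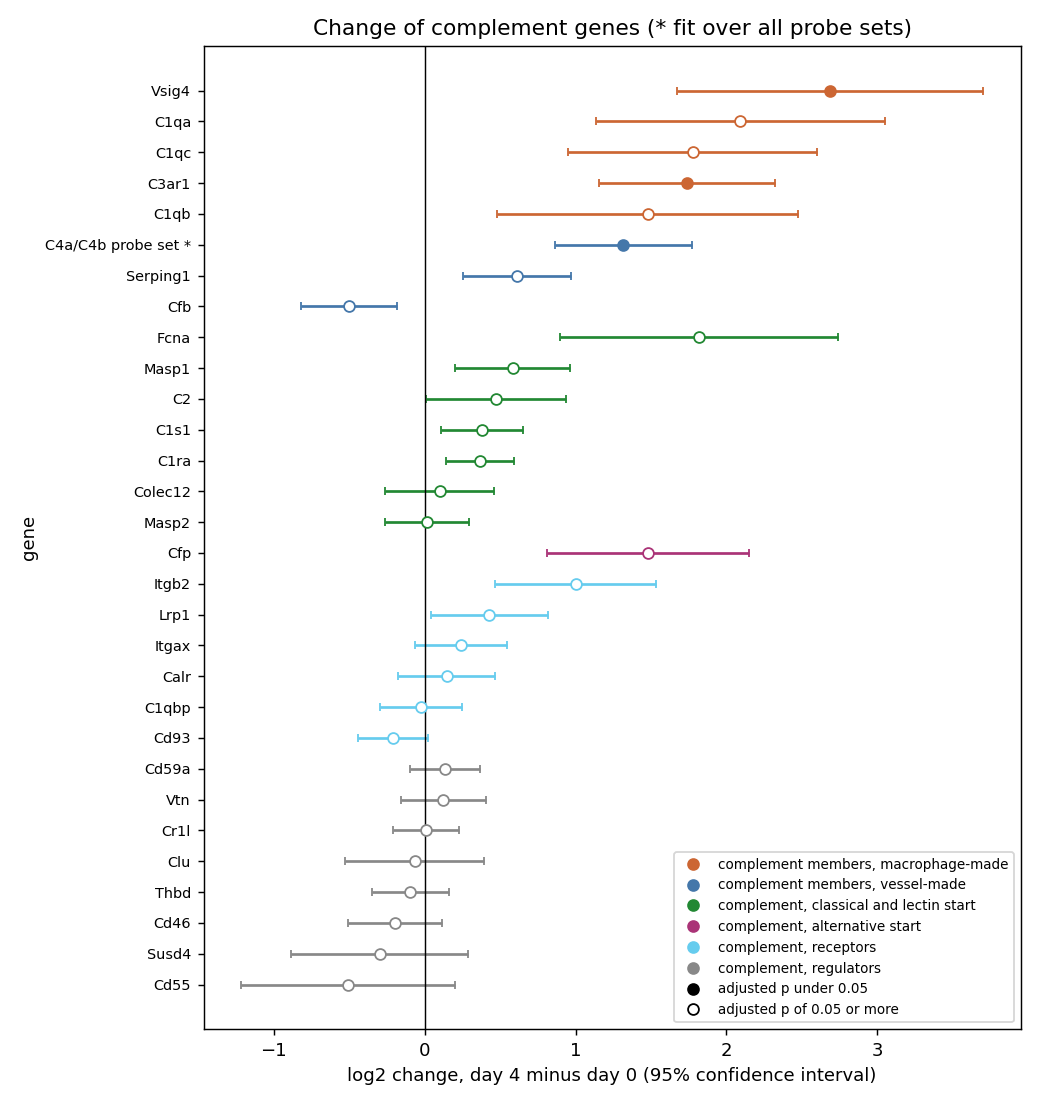
Log2 change, day 4 minus day 0, of each tested complement gene with its 95% confidence interval, by class. Filled points passed an adjusted p under 0.05: Vsig4, C3ar1 and, in the fit over all probe sets, the C4a and C4b probe set.

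Of 55 other genes of the complement system listed by role, 40 were named on the array, 22 passed the level filter and 0 passed the limma test, while 8 had an unadjusted p under 0.05, which 21.2% of all genes had. Their median log2 difference was 0.13, against -0.023 over all genes, and 15 of the 22 were above 0, as were 4082 of all 8940 genes. With an intensity trend and robust fitting 1 was called, Cfp. The largest differences were those of Fcna, Cfp and Itgb2. Fcna, ficolin A, is a lectin of macrophages that starts the lectin pathway. It read 6.37, 5.06 and 5.21 at day 0 and 7.31 and 7.42 at day 4, a log2 difference of 1.82 ± 0.38 (SE) with a limma adjusted p of 0.0643. Cfp encodes properdin, which stabilises the alternative pathway convertase. It read 5.78, 4.80 and 5.04 at day 0 and 6.66 and 6.71 at day 4, a log2 difference of 1.48 ± 0.28 (SE) with a limma adjusted p of 0.0515. In both genes day 0 replicate 1 was the highest untreated array, as in the C1q chains, and the groups did not overlap. Itgb2, the shared chain of the complement receptors of leukocytes, had means of 5.28 and 6.28 (limma adjusted p = 0.0714).

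The proteases that act with C1q and C4b had smaller differences. C1s1 encodes C1s, which cleaves C4, and its log2 difference was 0.38 ± 0.11 (SE), with a limma adjusted p of 0.132. C1ra, which encodes C1r and is named here after its values were seen, gave 0.37 (adjusted p = 0.0953). C2, the next protein-coding gene after Cfb on chromosome 17, gave 0.47 (adjusted p = 0.231), the opposite sign to Cfb. On the day 0 arrays C2 read 6.02, 5.80 and 5.42 and on the day 4 arrays 6.36 and 6.08, with the lower day 4 array just above the highest day 0 array. Masp1, a protease of the lectin pathway, gave 0.58 (adjusted p = 0.110) by the tested probe set, but -0.042 and 0.018 by its other probe sets above the level.

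Of 8 regulators tested, 3 had a log2 difference above 0, as had 4082 of all 8940 genes. None of the 8 passed or had an unadjusted limma p under 0.05, and their median was -0.081. Cd55, decay accelerating factor, which dismantles the convertases on the cell surface, read 7.19, 7.33 and 6.33 at day 0 and 6.35 and 6.53 at day 4. Its groups overlapped, because day 0 replicate 3 was the lowest array of all, and the log2 difference of -0.51 had a limma adjusted p of 0.367. The membrane regulator gene Cr1l, also known as Crry, gave 0.011 (95% confidence interval -0.21 to 0.23), and Cd59a, which blocks the membrane attack complex, 0.14 (-0.095 to 0.37); both are given here after their values were seen. Lrp1, a scavenger receptor that binds C1q among other ligands, gave 0.43 (adjusted p = 0.202).

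The other 18 genes on the array did not pass the level filter. Their 19 probe sets read at most 3.81 on any array, with differences between -0.60 for Mbl2, a mannose-binding lectin, and 0.67 for C6, a component of the membrane attack complex. All 6 membrane attack genes named on the array were among them, so none of that group was tested.

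For each gene, those with the nearest profile over the 5 arrays were found. Nearness was the root mean square difference in log2 after centring each gene on its own mean, over 8939 other genes. Nearest to C1qa were Ms4a7, C1qc and Clec7a (0.16 to 0.18), and nearest to C1qc were Ms4a7, Fcna and Clec7a (0.11 to 0.16). For C1qb they were Cd86, Cd48 and Lyz1 (0.043 to 0.13), and for Vsig4 Ccl8, Ccl6 and Fcgr1 (0.18 to 0.28). For C3ar1 they were Per2, a clock gene, with Sesn2 and Pmaip1 (0.17 to 0.20). For Serping1 they were Apaf1, Slc2a3 and Carhsp1 (0.047 to 0.065), and for Cfb Shcbp1, Thy1 and Msmo1 (0.031 to 0.058). With 5 arrays in 2 groups, such nearness mainly reflects a like difference between the groups, and genes of small spread have near neighbours more easily.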

How the data were processed

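Gene expression was measured on 5 Affymetrix MOE 430 A 2.0 arrays. The authors deposited 1 log2 value per probe set and array, which the submitters' processing notes credit to GCRMA. No version is given in the sources used here, nor whether 1 run covered all arrays. GCRMA hides a change shared by most genes and spreads out low values, and the table held no detection calls. The table ran from 1.57 to 14.4. Array medians were 5.26 to 5.30, and each array had 64.8% to 65.4% of its probe sets above 4.

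Genes were named by the platform annotation, with 20380 of 22690 probe sets carrying 1 symbol. Each gene was read by its probe set with the highest mean past the filter, giving 8940 genes. Day 4 was set against day 0 by limma 3.58.1 (lmFit, then eBayes; R 4.3.3), two-sided, without covariates, with 3 residual and 3.29 prior degrees of freedom. The C4a and C4b probe set was tested in a second fit over all 15065 probe sets past the filter, added with its alternatives after the values were seen. The number of arrays limits the precision. P-values measure the spread between pools, which may be partly technical. On simulated data with 200 changed genes among 8940, the gene fit recovered 67% of changes of 1 and 96% of changes of 2 in log2. It also called 10 unchanged genes. The changed genes were drawn at random, each with noise of its own spread. These shares are thus averages and do not give the recovery of genes as variable as the C1q chains (SE of 0.34 to 0.41).

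Genes named were every complement member, of the other complement genes those called and the 8 with the largest difference, the defining cell markers, the called markers of a list by largest change, and the 3 nearest profiles of each member. Beyond that rule, chosen after their values were seen, all 6 called macrophage markers, Camp, Cd8b1, Ccr9 and Dntt are named. The members and lists were chosen with earlier results of these data known. Alternatives were 2 scalings, 2 other filters, averaging each gene's probe sets, an intensity trend with robust fitting, a replicate block and leaving out each array. Plots used matplotlib 3.10.9 and Python 3.11.15.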

Additional observations from a re-analysis of the deposited data

How the results depend on the processing

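Quantile normalization, median centring, no filter and averaging each gene's probe sets changed no call among the 5 macrophage-made genes, Serping1, Cfb and the 22 other complement genes. For the C4a and C4b probe set, which has no average, the first 3 of these kept the call (adjusted p from 0.0346 to 0.0408). Each of the 7 genes kept its sign in each alternative that tested it. Among genes above a level of 6, 2 macrophage-made genes were again called, but these were C1qa and C1qc, since Vsig4 and C3ar1 were not tested there, and 1 other complement gene, Cfp (adjusted p = 0.0418), was. With an intensity trend and robust fitting, 418 genes were called in place of 255, Cfp (adjusted p = 0.0447) the 1 other complement gene among them. Without single arrays, 11 to 341 genes were called, 0 to 3 macrophage-made and 0 to 2 other complement genes. With 1 day 0 array left out, the count was 140 (replicate 1), 163 (replicate 2) or 34 (replicate 3). With 1 day 4 array left out, it was 11 (replicate 1) or 341 (replicate 2). Macrophage-made calls numbered 0 without day 0 replicate 3 or day 4 replicate 1, and 1 without day 4 replicate 2. The 2 other complement genes were Fcna (2.23, adjusted p = 0.00522) and Cfp (1.77, adjusted p = 0.0128), called without day 0 replicate 1. The median of Serping1 and Cfb, between -0.046 and 0.14 without single arrays, changed sign without day 0 replicate 3 (-0.046), as it joins a gene above 0 and one below. The replicate number was shared between groups but nothing in the labels pairs the arrays, and deviations of same-numbered arrays correlated with r of 0.16 and 0.078 over genes. With the replicate block, which leaves 1 residual degree of freedom, 481 genes were called, among them all 5 macrophage-made genes and 4 other complement genes (Cd55, Cfp, Fcna and Itgb2), and the median of Serping1 and Cfb was -0.046. The cause of these differences was not tested. Signals near the level filter, as of Vsig4 and C3ar1 at day 0, limit the sizes of their changes.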
